A study of Mus musculus with 12 samples.

Results

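The 36 genes described here encode the proteases, sugar and lipid hydrolases, cofactors, membrane proteins and proton pump of the lysosome, with a transcription factor and an ion channel that control it. They came from a list of gene symbols and not from measured values, and all 36 were found among the 34989 genes of the files. The list held 9 cysteine proteases (Ctsb, Ctsc, Ctsf, Ctsh, Ctsk, Ctsl, Ctss, Ctsz and legumain, Lgmn), 3 aspartic and serine cathepsins (Ctsd, Ctse and Ctsa), 7 sugar and lipid hydrolases, 4 cofactors and cholesterol transport proteins, 5 membrane glycoproteins, 6 genes of the V-ATPase, and the pair Tfeb and Mcoln1. RNA was sequenced from samples labelled tumor-associated macrophages, taken from melanomas that were induced locally in mice carrying Tyr::CreER, an inducible Cre recombinase that the tyrosinase promoter restricts to melanocytes. All groups shared this transgene, beside which the labels also write the genotype wild type. The labels give no age beyond saying that mice were matched for it. Control is the untreated arm, for which the protocol names normal chow and a PBS vehicle. The CD40 agonist group received FGK4.5, an antibody that stimulates CD40, at 10 mg/kg into the peritoneum at intervals of 3 days, up to 10 doses. The CSF1Ri group ate chow with 600 mg/kg of PLX6134, and the combination group received both agents. Treatment started on day 30 after induction, with a total tumor volume under 100 mm3, and ran for 30 days or to an endpoint of 2 cm3. Each group had 3 libraries and each library pooled at least 3 tumors. Nothing in the labels ties libraries to cages or days, and the p-values given here therefore cover the spread between tumor pools, part of which may be technical.

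Lysosomes are acidic organelles that break down material taken up from outside the cell or delivered by autophagy. A proton pump, the V-ATPase, lowers their pH, cathepsins and other acid hydrolases digest the content, and transporters export the products. The transcription factor TFEB binds an E-box-like motif in the promoters of many of these genes. In macrophages the same enzymes digest engulfed cells and cut proteins for presentation on MHC class II molecules.

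Promoters of 28 of the 36 members were matched by symbol in a RefSeq table for GRCm38.p6 that spans 250 bases before to 50 bases after each start. The E-box core CACGTG, which reads the same on both strands, was present in 11 of the 33 promoters listed for these members (33.3%), each from a different gene, against 7.15% of all 32851 promoters of that length. The longer motif GTCACGTG, searched on both strands and containing the core, was present in 7 of the 33 (those of Lgmn, Ctsd, Ctsa, Glb1, Lamp1, Atp6v0d1 and Mcoln1), or 21.2% against 2.25% of all promoters. Entries for Ctsb, Ctsh, Ctse, Asah1, Npc1, Atp6v0d2, Atp6v1b2 and Atp6v1h were not in the table. For the 3 described members that hold the longer motif, the bases before the start that lie outside the GENCODE gene are shown 5′ to 3′ on the strand of the gene, because Tfeb, whose product reads such motifs, is a member itself. They lie at chr7:142388039-142388077 on the minus strand (Ctsd) and at chr8:13158911-13159160 (Lamp1) and chr8:3500269-3500456 (Mcoln1) on the plus strand. Capitals mark the longer motif on either strand.
Ctsd: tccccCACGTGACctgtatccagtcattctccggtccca
Lamp1: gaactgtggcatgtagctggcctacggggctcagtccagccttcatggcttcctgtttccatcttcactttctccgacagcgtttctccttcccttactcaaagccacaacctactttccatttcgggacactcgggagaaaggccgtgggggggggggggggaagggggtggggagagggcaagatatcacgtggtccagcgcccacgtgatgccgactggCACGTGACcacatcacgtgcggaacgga
Mcoln1: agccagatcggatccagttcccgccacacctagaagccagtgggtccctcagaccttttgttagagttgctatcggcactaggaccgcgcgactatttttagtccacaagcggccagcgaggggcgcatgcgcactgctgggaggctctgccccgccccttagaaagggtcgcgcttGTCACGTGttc
The RefSeq starts of Ctsd and Mcoln1 lie inside the GENCODE genes, whose coordinates are given with the values, so that 211 and 62 bases of these windows are not shown. Counted from the RefSeq start, Ctsd holds 2 copies of the longer motif, 245 and 98 bases upstream, and Mcoln1 holds 2, at 73 and 45 bases. Of each pair the nearer copy lies within the GENCODE gene. Lamp1 holds 1 copy at 28 bases among 4 copies of the core. A match is a description of the letters and not evidence of binding.

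The libraries held 26316328 to 39818657 estimated counts each. Of the 12 macrophage markers examined, 9 were above 1 CPM in every library (CPM is the count relative to library size after TMM scaling by edgeR), with Adgre1 (F4/80) at 194 to 297.6 CPM and Lyz2 at 11410 to 30880 CPM. The complement gene C1qa was as low as 0.0679 CPM with CSF1Ri, and C1qc was at 0 in 1 CSF1Ri library, while the monocyte marker Ccr2 was at 1419 to 3549 CPM in all 12 libraries. The labels give no gate for the cells that were sequenced. In such bulk RNA fewer cells of a type and less RNA per cell cannot be told apart. A pair of libraries stood apart from their groups on the second principal component of log2 CPM, here without TMM scaling, over 12872 genes. Combination replicate 2 was at 65.6 against 23.1 and 28.6 for its group, and CSF1Ri replicate 3 at -24.8 against 6.7 and 6.4. Results that moved most without either library are given with and without it.

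The proteases of antigen processing led the list in all groups. Per transcript length (TPM), Ctss, a cathepsin that processes the invariant chain of MHC class II, led with a median of 2632 TPM over the 12 libraries, followed by Ctsb with 1256 TPM, Cd68 with 861 TPM, Psap with 825 TPM and Ctsz with 752 TPM. Ctss and Ctsb were first and second in each of the 4 groups. At the low end stood Ctsk, the collagen-degrading cathepsin of osteoclasts, with a median of 7.19 TPM, and Atp6v0d2 with 1.23 TPM. Ctsf had counts in only 4 libraries. It was at 0.502 CPM in Control replicate 3, at 0.0786 and 1.69 CPM in CD40 agonist replicates 2 and 3, at 3.01 CPM in combination replicate 3 and at 0 elsewhere. Its 15 counts in Control were at least 4.91-fold above the floor of 3 counts over the 3 CSF1Ri libraries, where it was at 0. Such floors cover counting error only. By mean TPM Ctsc was at rank 9 in Control and in the CD40 agonist group, at rank 8 with CSF1Ri and at rank 3 with the combination. Summed over the 36 members, the level was 15662 to 16806 CPM in Control, 15898 to 19397 CPM with the CD40 agonist, 14133 to 16130 CPM with CSF1Ri and 16662 to 22475 CPM with the combination. The ranges of all 3 treated groups overlapped Control, and combination replicate 2 held the highest sum.

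**Figure D1:**
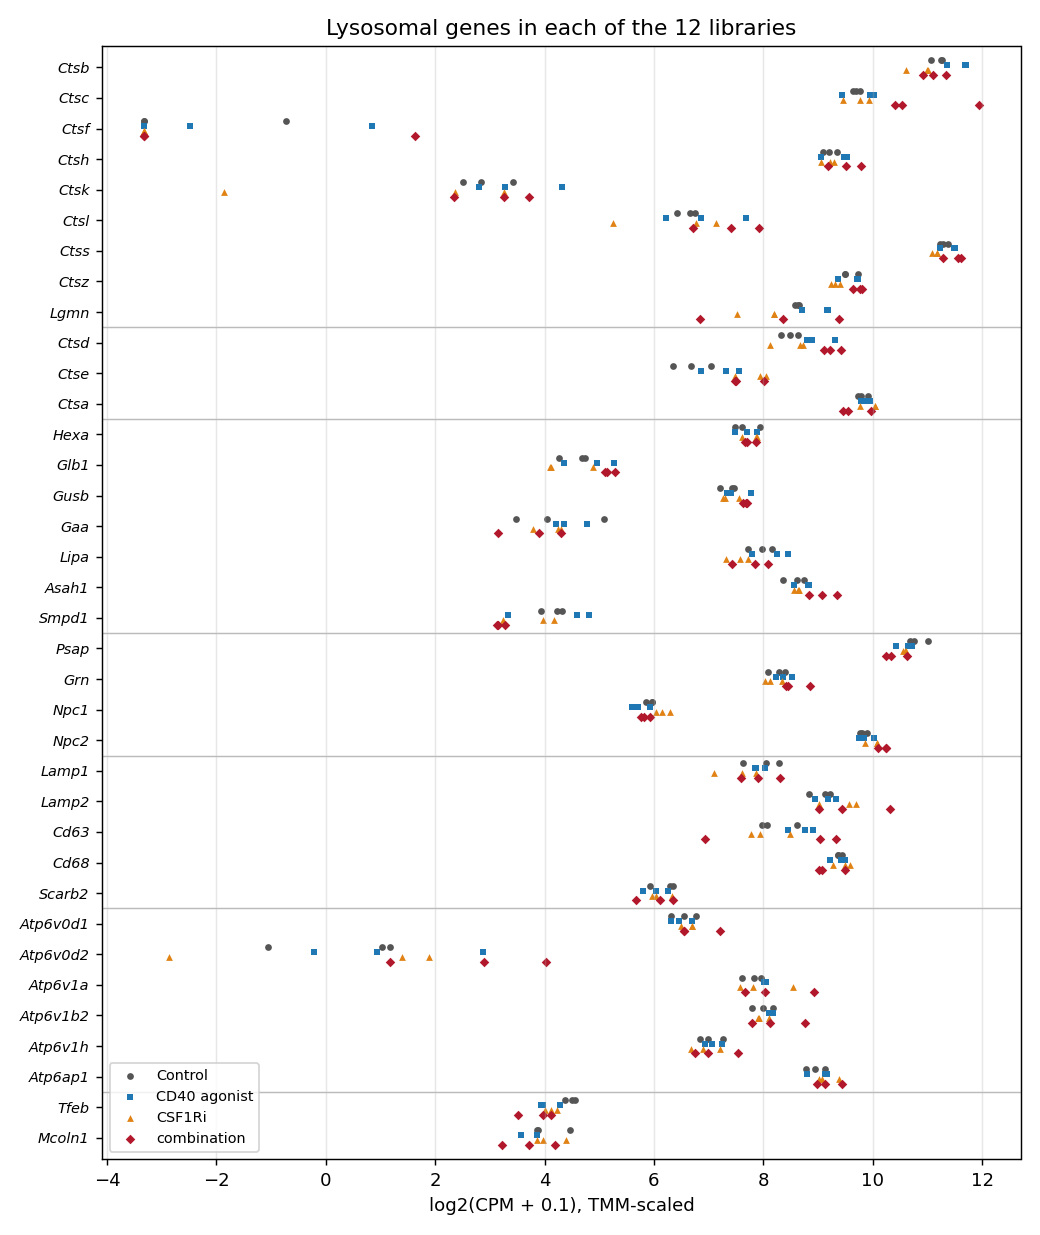
Levels of the 36 lysosomal genes in the 12 libraries, as log2 of TMM-scaled CPM plus 0.1 on the horizontal axis; each point is 1 library, shape and colour give the group, and grey lines separate the gene groups. Ctss and Ctsb lie at the right in every library, Ctsf, Ctsk and Atp6v0d2 spread widely at the left, and 1 combination library lies far to the right for Ctsc and Lamp2.

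The design asks what each agent did alone, what both did together, and whether the joint effect differed from the sum of the single ones on a log scale. All 36 members passed the filter on low counts and entered a fit over 16027 genes. By edgeR's quasi-likelihood test at a Benjamini-Hochberg adjusted p below 0.05, 0 of the 36 members were called in any of the 7 comparisons. The genes called overall were 0% of those tested for the CD40 agonist against Control, 0.0125% for CSF1Ri against Control, 0.774% for the combination against Control, 0% for the combination against the CD40 agonist, 1.94% for the combination against CSF1Ri, 0% for the interaction of both agents and 1.2% for any difference among the 4 groups. At an unadjusted p below 0.05 by the same edgeR test, 3 members stood out for the CD40 agonist, 1 for CSF1Ri, 8 for the combination against Control, 5 and 8 for the combination against the CD40 agonist and CSF1Ri, 2 for the interaction and 10 for any difference. These are 8.33%, 2.78%, 22.2%, 13.9%, 22.2%, 5.56% and 27.8% of the members, beside 7.68%, 9.47%, 14.8%, 9.05%, 18.3%, 8.14% and 16.3% of all genes tested. DESeq2 called more members, and also more of all genes. It called 0 members for the CD40 agonist, 1 (Ctse) for CSF1Ri, 5 (Asah1, Ctsc, Ctsd, Ctse and Npc2) for the combination against Control, 1 (Ctsc) and 5 (Asah1, Ctsc, Ctsd, Ctss and Ctsz) for the combination against the CD40 agonist and CSF1Ri, 0 for the interaction and 6 (Asah1, Ctsb, Ctsc, Ctsd, Ctse and Npc2) for any difference. These are 0%, 2.78%, 13.9%, 2.78%, 13.9%, 0% and 16.7% of the members, beside 1.59%, 2.89%, 7.26%, 2.15%, 10.6%, 1.46% and 12.6% of the genes DESeq2 tested in the 7 comparisons. limma voom called 0 in all 7.

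With the CD40 agonist 29 of 36 members were higher than in Control, with a median log2 fold change of 0.12 beside 0.01 over all genes tested. With CSF1Ri 16 were higher, with a median of -0.02 beside -0.01. With the combination 23 were higher, with a median of 0.24 beside 0.00, and without combination replicate 2 these values were 20 and 0.11. The median of the interaction was 0.15, with 27 members above 0, and it turned to -0.07 with 17 above 0 once combination replicate 2 and CSF1Ri replicate 3 were both left out. The 3 comparisons with Control share their Control libraries. The 95% interval of the log2 fold change lay within 1 of 0, that is within a 2-fold change, for 26 of 36 members with either single agent (72.2%) and for 20 with the combination (55.6%), beside 33.1%, 32.6% and 29.2% of all genes tested. Members are more abundant than most genes, with a median of 250.5 CPM beside 20.0 CPM over 12872 genes with a mean of at least 1 CPM. These CPM values are without TMM scaling. The shares are therefore not matched for precision.

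**Figure D2:**
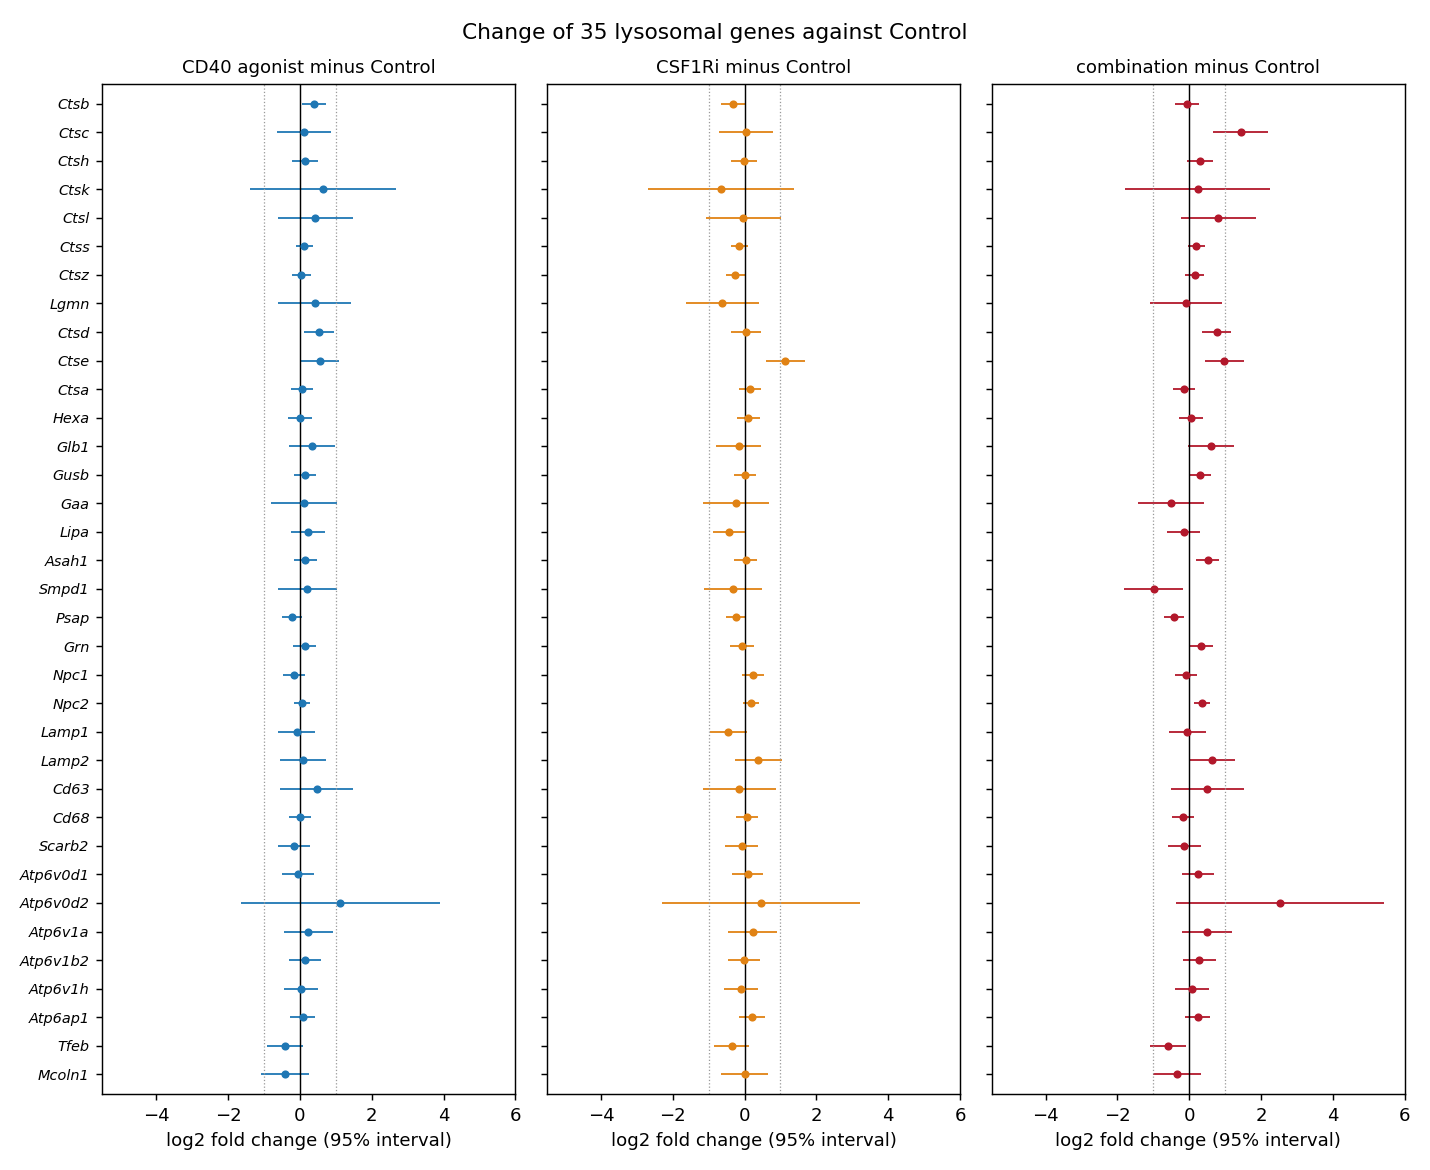
Log2 fold change of each member against Control, with its 95% interval from the edgeR fit on the horizontal axis, for the CD40 agonist, CSF1Ri and the combination; dotted lines mark a 2-fold change and Ctsf, at 0 in all CSF1Ri libraries, is left out. Most intervals span 0, those of Ctsk and Atp6v0d2 are the widest, and Ctsc, Ctsd, Ctse and Asah1 lie to the right of 0 with the combination.

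The members were also counted by whether the libraries of one group all lay above or below those of another. For the CD40 agonist 4 members were higher than all Control libraries (Ctsb, Lgmn, Ctsd and Atp6v1a, 11.1%), where 8.34% of all genes were, and 2 were lower (Tfeb and Mcoln1, 5.56%), where 8.74% were. For CSF1Ri 2 were higher (Ctse and Npc1, 5.56%), against 7.23% of all genes, and 7 were lower (Ctsb, Ctss, Ctsz, Lgmn, Lipa, Psap and Tfeb, 19.4%), against 8.55%. For the combination 8 were higher than Control (Ctsc, Ctsd, Ctse, Glb1, Gusb, Asah1, Grn and Npc2, 22.2%), against 10.8%, and 3 were lower (Smpd1, Psap and Tfeb, 8.33%), against 11.5%. Between the combination and the CD40 agonist 3 were higher (8.33%, all genes 6.6%) and 2 lower (5.56%, all genes 6.93%). Between the combination and CSF1Ri 9 were higher (25%, all genes 10.8%) and Npc1 was lower (2.78%, all genes 11.1%). The counts of higher members with the combination against Control and CSF1Ri and of lower members with CSF1Ri lie above the share of all genes, and the others lie near or below it. These shares, too, are not matched for precision, because members are more abundant than most genes.

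Among the cysteine proteases all 9 were higher than Control with the CD40 agonist (median log2 fold change 0.39) and 8 of 9 were lower with CSF1Ri (median -0.26), none past the test. Without CSF1Ri replicate 3 the latter count was 7 of 9 (median -0.19). With the combination 7 of 9 were higher (median 0.24), and 8 of 9 without combination replicate 2 (median 0.34). The 9 genes summed to 7429, 9649 and 9395 CPM in CD40 agonist replicates 1, 2 and 3. In Control the sums were 7194 to 7761 CPM, so that CD40 agonist replicate 1 lay within Control. The 9 include Ctsf, with a median of 0 CPM over the libraries. Several macrophage markers stood in the same directions as the proteases with the single agents, but the sum of all 12 did not. With the CD40 agonist 5 of 12 (Adgre1, Mertk, C1qa, C1qb and C1qc, 41.7%, all genes 8.34%) lay above all Control libraries and 0 below (all genes 8.74%). With CSF1Ri 5 of 12 (Csf1r, C1qa, C1qb, C1qc and Aif1, 41.7%, all genes 8.55%) lay below and 2 (Adgre1 and Lyz2, 16.7%, all genes 7.23%) above. The 12 markers summed to 16908 to 20352 CPM in Control, 15664 to 19977 CPM with the CD40 agonist, 22391 to 27787 CPM with CSF1Ri and 14611 to 34993 CPM with the combination. The sums with CSF1Ri thus lay above all Control sums, and Lyz2 alone was at 11410 to 30880 CPM over the libraries. The part of these markers' cells in the protease levels was not tested. Ctsc, dipeptidyl peptidase I, which activates the serine proteases of immune granules (ENSMUSG00000030560, chromosome 7, 88278085 to 88310888), had the smallest p of the list in the test of any difference. In replicates 1, 2 and 3, the order used throughout, it stood at 833, 874 and 794 CPM in Control, 695, 1035 and 985 CPM with the CD40 agonist, 979, 873 and 702 CPM with CSF1Ri and 1358, 3926 and 1492 CPM with the combination. All 3 combination libraries lay above the other 9, and replicate 2 lay far above its group. The log2 fold change of the combination was 1.44 ± 0.35 against Control (SE, edgeR adjusted p = 0.089), 1.32 ± 0.35 against the CD40 agonist (edgeR adjusted p = 0.292) and 1.41 ± 0.35 against CSF1Ri (edgeR adjusted p = 0.0668). The interaction was 1.29 ± 0.49 (edgeR adjusted p = 0.512), while the single agents differed from Control by 0.12 ± 0.34 and 0.03 ± 0.34. Without combination replicate 2 the fold change against Control was 0.77 (edgeR adjusted p = 0.077), and without CSF1Ri replicate 3 as well it was 0.77 with an edgeR adjusted p of 0.0498. DESeq2 called Ctsc in all 3 comparisons of the combination, with adjusted p = 0.00257 against Control.

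Ctsb, an endopeptidase that also trims peptides from their ends (ENSMUSG00000021939, chromosome 14, 63122462 to 63145923), went in opposite directions with the single agents. Its levels were 2472, 2141 and 2432 CPM in Control, 2615, 3309.7 and 3326 CPM with the CD40 agonist, 2025, 2066 and 1571 CPM with CSF1Ri and 2211, 2604 and 1926 CPM with the combination. The CD40 agonist libraries lay above all Control libraries, the CSF1Ri libraries lay below them, and the combination overlapped Control. The log2 fold changes were 0.39 ± 0.15 (edgeR adjusted p = 0.592), -0.32 ± 0.15 (edgeR adjusted p = 0.537) and -0.06 ± 0.15 (edgeR adjusted p = 0.891), and the combination differed from the CD40 agonist by -0.46 ± 0.15 (edgeR adjusted p = 0.38). The leading transcript model of Ctsb, with 58.1% to 60.8% of its TPM, is annotated as a retained intron. That of Ctsh, with 52.3% to 60.9%, is annotated as a target of nonsense-mediated decay. For Mcoln1 the model with the most TPM over all libraries, with 12.9% to 51.7%, is again a retained intron, but it led in only 7 of the 12 libraries. These gene sums are thus not all from coding models.

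The other cysteine proteases divided into steady and variable genes. Ctss lay between 2175 and 3132 CPM and Ctsz between 602 and 895 CPM, and for both all 3 combination libraries lay above all 3 CSF1Ri libraries (log2 fold changes 0.34 ± 0.11 and 0.42 ± 0.12, edgeR adjusted p = 0.128 and 0.104). Ctsh, an aminopeptidase, ranged from 529.7 to 878 CPM with overlap among all groups. Lgmn, which cuts after asparagine, stood at 395, 402 and 384 CPM in Control, 418, 580.3 and 574 CPM with the CD40 agonist, 295, 291 and 184 CPM with CSF1Ri and 668, 114 and 329 CPM with the combination. The combination thus held both its highest and its lowest library, the lowest being replicate 2. The intervals of Lgmn against Control ran from -0.60 to 1.42 with the CD40 agonist, -1.63 to 0.39 with CSF1Ri and -1.09 to 0.92 with the combination, where the log2 fold change of -0.09 became 0.34 without replicate 2. Ctsl, an endopeptidase, ranged from 38.0 to 242 CPM, with its lowest value in CSF1Ri replicate 3 and its highest in combination replicate 2. Ctsk ranged from 0.175 to 19.9 CPM, and every interval of its change against Control spanned more than a 2-fold change in both directions.

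The aspartic cathepsins stood higher than Control in most treated libraries. Ctsd, the main aspartic protease of lysosomes (ENSMUSG00000007891, chromosome 7, 142375911 to 142388038), was at 397, 359 and 319.9 CPM in Control, 442, 638 and 472 CPM with the CD40 agonist, 423, 406 and 279 CPM with CSF1Ri and 551, 682 and 594 CPM with the combination. Both groups given the antibody lay above Control without overlap, and CSF1Ri overlapped it. The log2 fold changes were 0.53 ± 0.19 with the CD40 agonist (edgeR adjusted p = 0.564), 0.04 ± 0.19 with CSF1Ri (edgeR adjusted p = 0.989) and 0.76 ± 0.19 with the combination (edgeR adjusted p = 0.0903). The combination exceeded CSF1Ri by 0.72 ± 0.19 (edgeR adjusted p = 0.0749), and the interaction was 0.19 with a 95% interval from -0.38 to 0.77. DESeq2 called Ctsd for the combination against Control (adjusted p = 0.00574) and against CSF1Ri (adjusted p = 0.00794).

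Ctse, an aspartic protease of endosomes in immune and epithelial cells (ENSMUSG00000004552, chromosome 1, 131638306 to 131675505), was the member most different with CSF1Ri. It stood at 132, 81.1 and 102 CPM in Control, 159, 189 and 116 CPM with the CD40 agonist, 266, 244 and 179.6 CPM with CSF1Ri and 181, 179.6 and 259.7 CPM with the combination. All libraries given CSF1Ri, alone or with the antibody, lay above Control, and the CD40 agonist overlapped Control. Summed, the 12 markers of mast cells, basophils and eosinophils showed the same order, which single markers did not all share. The sums were 187 to 276 CPM in Control, 210.3 to 457 CPM with the CD40 agonist, 559 to 785 CPM with CSF1Ri and 459 to 752 CPM with the combination. Of the 11 that were tested, 8 lay above all Control libraries with CSF1Ri (72.7%, all genes 7.23%) and 0 below, and Epx did not pass the filter on low counts. With the combination 7 lay above Control (63.6%, all genes 10.8%) and 2 below (Il5ra and Prg2, 18.2%, all genes 11.5%). With the CD40 agonist 2 lay above (18.2%, all genes 8.34%) and the same 2 below (18.2%, all genes 8.74%). Between the combination and CSF1Ri 1 was higher (9.09%, all genes 10.8%) and 3 lower (Il5ra, Ccr3 and Siglecf, 27.3%, all genes 11.1%). The 10 neutrophil markers summed to 558 to 1386, 467 to 626, 787 to 3275 and 885 to 2598 CPM in Control, CD40 agonist, CSF1Ri and combination libraries. The part of all these cells in the level of Ctse was not tested. The log2 fold changes were 0.56 ± 0.25 (edgeR adjusted p = 0.646), 1.13 ± 0.25 (edgeR adjusted p = 0.137) and 0.98 ± 0.25 (edgeR adjusted p = 0.106), and the interaction was -0.71 ± 0.35 (edgeR adjusted p = 0.645). Leaving out CSF1Ri replicate 3 gave 1.26 for CSF1Ri (edgeR adjusted p = 0.0669), and leaving out combination replicate 2 as well gave 1.28 (edgeR adjusted p = 0.04). Ctsa, a serine carboxypeptidase that protects beta-galactosidase and neuraminidase, ranged from 700.1 to 1059 CPM, and its changes against Control had intervals of -0.25 to 0.37, -0.16 to 0.45 and -0.44 to 0.17.

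**Figure D3:**
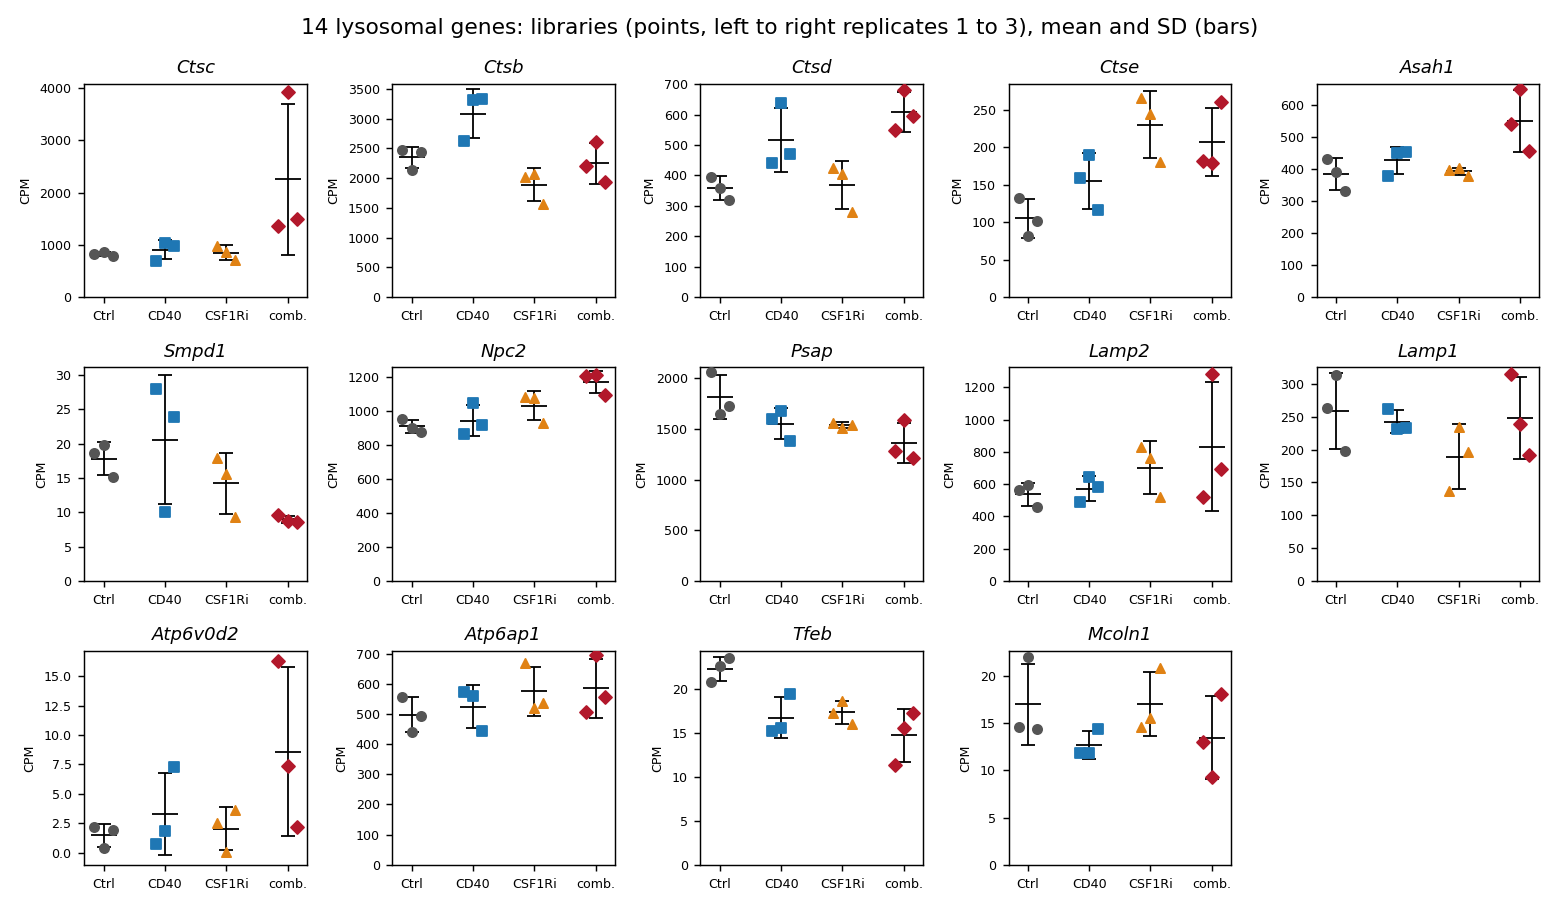
CPM of the 14 described members by group (Ctrl, Control; CD40, CD40 agonist; comb., combination), with each library as a point, replicates 1 to 3 from left to right, and the mean and SD of the 3 libraries as bars. The 3 combination points lie above all Control points for Ctsc, Ctsd, Ctse, Asah1 and Npc2 and below them for Smpd1, Psap and Tfeb, and replicate 2 sets the spread of Ctsc and Lamp2.

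The sugar and lipid hydrolases included 2 sphingolipid enzymes that stood on opposite sides of Control with the combination. Asah1, acid ceramidase (ENSMUSG00000031591, chromosome 8, 41340197 to 41374773), was at 431, 389.9 and 330.3 CPM in Control, 379, 448 and 454 CPM with the CD40 agonist, 396, 402 and 379 CPM with CSF1Ri and 541, 649.9 and 457 CPM with the combination. All 3 combination libraries lay above the other 9, and the single agents overlapped Control. The log2 fold change of the combination was 0.52 ± 0.15 against Control (edgeR adjusted p = 0.137), 0.36 ± 0.15 against the CD40 agonist (edgeR adjusted p = 0.468) and 0.49 ± 0.15 against CSF1Ri (edgeR adjusted p = 0.114). It was 0.38 against Control without combination replicate 2. DESeq2 called Asah1 against Control (adjusted p = 0.0207) and against CSF1Ri (adjusted p = 0.0255).

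Smpd1, acid sphingomyelinase, which releases ceramide (ENSMUSG00000037049, chromosome 7, 105554360 to 105558389), was measured at low level. It stood at 18.6, 19.7 and 15.1 CPM in Control, 27.9, 9.98 and 23.9 CPM with the CD40 agonist, 17.9, 15.6 and 9.30 CPM with CSF1Ri and 9.58, 8.81 and 8.65 CPM with the combination. The combination libraries lay below all Control and CD40 agonist libraries and overlapped CSF1Ri. The log2 fold change of the combination was -0.98 ± 0.37 against Control (edgeR adjusted p = 0.255) and -1.19 ± 0.38 against the CD40 agonist (edgeR adjusted p = 0.38). Of the other 5 enzymes, Glb1 (beta-galactosidase) and Gusb (beta-glucuronidase) were higher with the combination than in every Control and CSF1Ri library. Glb1 had 35.1, 34.1 and 39.1 CPM with the combination against 19.2, 26.6 and 25.6 CPM in Control, a log2 fold change of 0.60 ± 0.29 (edgeR adjusted p = 0.362). Lipa, the acid lipase that frees cholesterol from its esters, was at 189, 210.0 and 158 CPM with CSF1Ri against 286, 211 and 253 CPM in Control, a log2 fold change of -0.43 ± 0.21 (edgeR adjusted p = 0.557). Hexa (178 to 244 CPM) and Gaa (8.78 to 34.0 CPM), which cut gangliosides and glycogen, overlapped among the groups.

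Npc2, the soluble carrier that hands cholesterol to the membrane protein Npc1 for export (ENSMUSG00000021242, chromosome 12, 84754562 to 84773152), was one of the steadiest members. It was at 950.4, 898 and 876 CPM in Control, 866, 1044 and 914 CPM with the CD40 agonist, 1082, 1074 and 931 CPM with CSF1Ri and 1207, 1209 and 1095 CPM with the combination. The combination libraries were the 3 highest of the 12. The log2 fold change was 0.37 ± 0.10 against Control (edgeR adjusted p = 0.137), which DESeq2 called (adjusted p = 0.0114), and 0.19 ± 0.10 against CSF1Ri (edgeR adjusted p = 0.371). Npc1 itself stood at 57.5, 62.1 and 62.3 CPM in Control and 78.2, 70.5 and 65.2 CPM with CSF1Ri, without overlap, and at 54.6, 60.5 and 56.6 CPM with the combination. Its log2 fold change with CSF1Ri was 0.23 ± 0.14 (edgeR adjusted p = 0.641).

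Psap, prosaposin, the precursor of activators for sphingolipid hydrolases (ENSMUSG00000004207, chromosome 10, 60277627 to 60302597), stood below Control in most treated libraries. It was at 2059, 1650.3 and 1723 CPM in Control, 1593, 1676 and 1382 CPM with the CD40 agonist, 1561, 1510.5 and 1540.4 CPM with CSF1Ri and 1286, 1585 and 1215 CPM with the combination. CSF1Ri and the combination lay below all Control libraries, and the CD40 agonist overlapped them. The log2 fold changes were -0.22 ± 0.13 (edgeR adjusted p = 0.726), -0.24 ± 0.13 (edgeR adjusted p = 0.591) and -0.41 ± 0.13 (edgeR adjusted p = 0.166). Grn, progranulin, was at 349.5, 463 and 339.6 CPM with the combination against 270.1, 335 and 310.3 CPM in Control, a log2 fold change of 0.33 ± 0.15 (edgeR adjusted p = 0.34) that was 0.18 without combination replicate 2.

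The membrane glycoproteins differed more between libraries than between groups. Lamp1, a major protein of the lysosomal membrane (ENSMUSG00000031447, chromosome 8, 13159161 to 13175338), was at 264, 313 and 198 CPM in Control, 262, 231 and 233 CPM with the CD40 agonist, 136, 234 and 196 CPM with CSF1Ri and 315, 239 and 192 CPM with the combination. All groups overlapped, and the log2 fold changes were -0.09 ± 0.24, -0.45 ± 0.24 and -0.05 ± 0.24 (edgeR adjusted p = 0.968, 0.586 and 0.948). Lamp2, which also serves chaperone-mediated autophagy (ENSMUSG00000016534, chromosome X, 38401357 to 38456454), was at 562, 593 and 456 CPM in Control, 491, 643 and 582 CPM with the CD40 agonist, 829, 761 and 519 CPM with CSF1Ri and 521, 1281 and 696 CPM with the combination. The groups overlapped, and combination replicate 2 held the highest value. The log2 fold change of the combination was 0.63 ± 0.29 (edgeR adjusted p = 0.344) and 0.18 without that library, and against CSF1Ri 0.24 became -0.21. Cd63, a tetraspanin of late endosomes and lysosomes, showed the reverse in the same library, with 642, 122 and 526 CPM in the combination against 266, 251 and 394 CPM in Control. Its log2 fold change against CSF1Ri was 0.65 with all 12 libraries, and 0 of the 5 membrane glycoproteins had an unadjusted edgeR p below 0.05 there. Without combination replicate 2 it was 1.09 (edgeR adjusted p = 0.0528). Cd68, the macrosialin of macrophages, stayed between 521 and 765 CPM and Scarb2, the receptor that delivers glucocerebrosidase, between 50.8 and 81.3 CPM, both with overlap among all groups.

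The 6 V-ATPase genes were all higher than Control with the combination, none past the test, with a median log2 fold change of 0.27. Without combination replicate 2, 3 of 6 were higher and the median was 0.02. Atp6ap1, an accessory subunit needed for assembly of the pump (ENSMUSG00000019087, chromosome X, 74297097 to 74304721), was at 556, 440.2 and 493 CPM in Control, 571, 559 and 442 CPM with the CD40 agonist, 669, 519 and 535 CPM with CSF1Ri and 505, 695 and 556 CPM with the combination. The groups overlapped, and the log2 fold change of the combination was 0.24 ± 0.16 (edgeR adjusted p = 0.534). Atp6v1a and Atp6v1b2, subunits of the catalytic head, Atp6v1h and Atp6v0d1 had their highest values in combination replicate 2, as did Atp6ap1. Atp6v1a, for example, stood at 202, 484 and 260.3 CPM with the combination and 194, 228 and 249 CPM in Control. Summed over the 6 genes, that library held 1950 CPM, while the other 11 held 1182 to 1512 CPM.

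Atp6v0d2, the form of the d subunit enriched in osteoclasts and some macrophages (ENSMUSG00000028238, chromosome 4, 19876841 to 19922605), was scarce. It was at 2.16, 0.38 and 1.94 CPM in Control, 0.765, 1.81 and 7.24 CPM with the CD40 agonist, 2.51, 0.0375 and 3.61 CPM with CSF1Ri and 16.3, 7.35 and 2.14 CPM with the combination. The groups overlapped, and the log2 fold change of the combination had an interval from -0.37 to 5.41 (edgeR adjusted p = 0.406). The osteoclast marker Calcr was at 0 in all 12 libraries, and the sum of the 7 osteoclast and fusion markers was 207 to 246 CPM in Control, 267 to 342 CPM with the CD40 agonist, 168 to 225 CPM with CSF1Ri and 154 to 247 CPM with the combination. Their part in the level of Atp6v0d2 was not tested.

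**Figure D4:**
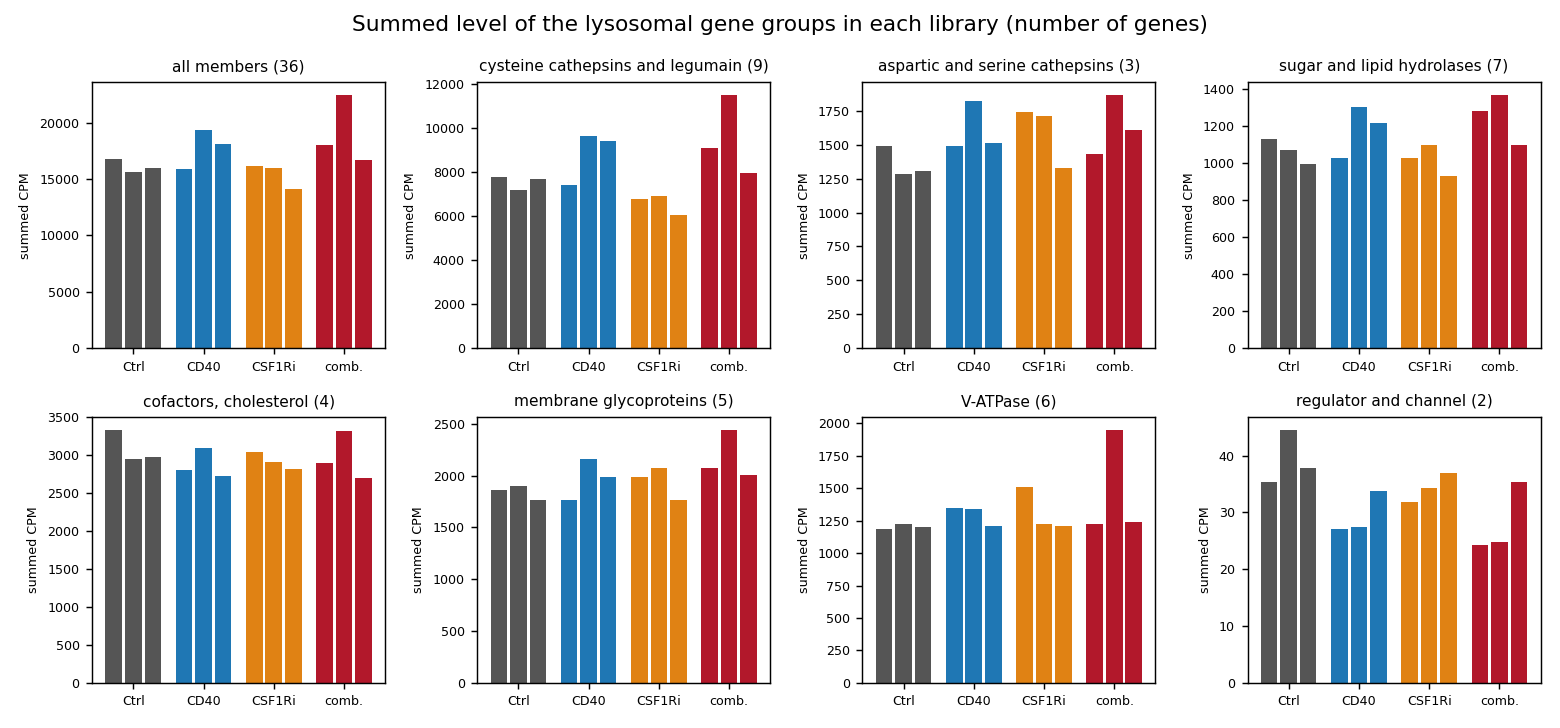
Summed CPM of all 36 members and of each gene group in every library, replicates 1 to 3 from left to right within a group (Ctrl, Control; comb., combination), with the number of genes in parentheses. Combination replicate 2 has the highest bar for all members together, the cysteine proteases, the V-ATPase and the membrane glycoproteins, and the bars of Tfeb with Mcoln1 are tallest in Control replicate 2.

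Tfeb stood below Control in every treated library. This transcription factor of the lysosomal gene program (ENSMUSG00000023990, chromosome 17, 47737030 to 47792419) was at 20.8, 22.6 and 23.5 CPM in Control, 15.3, 15.5 and 19.5 CPM with the CD40 agonist, 17.3, 18.7 and 16.1 CPM with CSF1Ri and 11.4, 15.6 and 17.2 CPM with the combination. All 9 treated libraries lay below the 3 Control libraries. The log2 fold changes were -0.41 ± 0.23, -0.36 ± 0.23 and -0.60 ± 0.23 (edgeR adjusted p = 0.72, 0.677 and 0.254). Mcoln1, a calcium channel of the lysosomal membrane (ENSMUSG00000004567, chromosome 8, 3500457 to 3515232), was at 14.6, 21.9 and 14.4 CPM in Control, 11.8, 11.8 and 14.4 CPM with the CD40 agonist, 14.5, 15.6 and 20.8 CPM with CSF1Ri and 13.0, 9.28 and 18.1 CPM with the combination. The CD40 agonist libraries lay below the lowest Control library, by a margin lost in rounding, and the other groups overlapped Control. Its log2 fold changes were -0.42 ± 0.30, 0.00 ± 0.30 and -0.34 ± 0.30 (edgeR adjusted p = 0.814, 1 and 0.667). The 7 members with GTCACGTG in the promoter had a median log2 fold change of -0.05 with the combination, with 3 of 7 higher, and the 21 members in the table without it had 0.24, with 14 higher. With the CD40 agonist these medians were 0.06 and 0.12, and with CSF1Ri 0.00 and -0.08. For the core the order of the medians, but not of the shares of higher members, was the reverse for the antibody groups. For the combination the medians were 0.25 in the 11 members with it (6 higher) and 0.20 in the 17 without it (11 higher). For the CD40 agonist they were 0.23 (8 of 11 higher) and 0.09 (14 of 17 higher). With CSF1Ri the medians were -0.03 and -0.08.

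Other genes of the lysosome were counted from 7 lists. By edgeR 0 of the 15 other V-ATPase subunits tested, 0 of 16 other membrane proteins, 0 of 8 cystatins, 0 of 17 genes of the TFEB family and nutrient sensing, 0 of 14 genes of enzyme delivery and 0 of 16 autophagy genes were called in any comparison. At an unadjusted p below 0.05 in the edgeR test of any difference, 2, 2, 2, 2, 1 and 4 of them stood out in that order, as did 10 of the 32 other hydrolases and cofactors. These are 13.3%, 12.5%, 25%, 11.8%, 7.14%, 25% and 31.2% of the lists, beside 16.3% of all genes tested. Of the 15 other V-ATPase subunits 14 were higher with the combination than in Control, with a median log2 fold change of 0.28, and 12 were higher without combination replicate 2 (median 0.21). Among them the accessory subunit Atp6ap2 was at 209, 180.4 and 191 CPM in Control and 332, 343 and 251 CPM with the combination (log2 fold change 0.67 ± 0.15, edgeR adjusted p = 0.0758). Of the 32 other hydrolases and cofactors 1 was called, in the test of any difference. That gene was Ctsw, a cathepsin of NK and T cells, with an edgeR adjusted p of 0.0492. It was at 21, 33.7 and 31.8 CPM in Control, 48.3, 53.8 and 33.8 CPM with the CD40 agonist, 13.9, 7.05 and 10.1 CPM with CSF1Ri and 36, 19.0 and 26.4 CPM with the combination. All CD40 agonist libraries lay above Control, but the lowest of them (33.8 CPM) only barely above the highest Control library (33.7 CPM). All CSF1Ri libraries lay below Control. The 7 NK cell markers summed to 528 to 769 CPM in Control, 674 to 1493 CPM with the CD40 agonist, 402 to 591 CPM with CSF1Ri and 737 to 1344 CPM with the combination, and the 8 T cell markers to 93.0 to 118, 91.9 to 143, 45.2 to 53.4 and 55.3 to 80.4 CPM. The T cell sums with CSF1Ri and with the combination lay below all Control libraries, while Ctsw with the combination overlapped Control. The part of these cells in the level of Ctsw was not tested. Gm2a, the activator protein for ganglioside breakdown, had 2767, 2753 and 2435 CPM in Control and 2180.2, 1742 and 2002 CPM with the combination (log2 fold change -0.43 ± 0.11, edgeR adjusted p = 0.107).

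Of the other lists, 15 of the 32 hydrolases and cofactors were higher with the combination than in Control (median log2 fold change -0.07), 9 of 16 membrane proteins (0.05), 6 of 8 cystatins (1.07), 10 of 17 genes of the TFEB family and nutrient sensing (0.03), 11 of 14 delivery genes (0.23) and 11 of 16 autophagy genes (0.13). Without combination replicate 2 these counts and medians were 14 (-0.10), 8 (-0.06), 5 (0.62), 8 (-0.13), 9 (0.04) and 10 (0.05), so that the medians of the membrane proteins and of the TFEB list changed sign. Cystatins inhibit cysteine cathepsins. Cstb, cystatin B, was at 334, 338 and 237 CPM with the combination against 229, 192 and 201 CPM in Control (log2 fold change 0.55 ± 0.18, edgeR adjusted p = 0.183), and Cst7, cystatin F, at 19.4, 19.2 and 29.6 CPM against 10.0, 12.4 and 11.4 CPM (1.01 ± 0.32, edgeR adjusted p = 0.178). For both the combination libraries lay above Control. The 8 cystatins summed to 2921 to 3448 CPM in Control and 3357 to 3608 CPM with the CD40 agonist. Sums were 1618 to 2788 CPM with CSF1Ri, all below Control, and 1319 to 3426 CPM with the combination. With CSF1Ri 2 of 8 (Cst3 and Cst6, 25%, all genes 8.55%) lay below all Control libraries and 0 above. Against the CD40 agonist the combination was lower for Cst3 and higher for Stfa2 without overlap (12.5% each, all genes 6.93% and 6.6%). Tcirg1, a membrane subunit of the V-ATPase, stood at 88.7, 109 and 109 CPM with the CD40 agonist against 158, 191 and 148 CPM in Control (log2 fold change -0.69 ± 0.20, edgeR adjusted p = 0.459). Clcn7, a chloride and proton exchanger of the lysosome, was at 43.6, 264 and 81.6 CPM with the combination, with a log2 fold change against Control of 1.33 ± 0.50 (edgeR adjusted p = 0.252) that was 0.28 without replicate 2 (edgeR adjusted p = 0.713). Igf2r, the mannose 6-phosphate receptor that carries enzymes to lysosomes, was at 10.5, 22.9 and 8.78 CPM with the combination and 5.19, 3.64 and 2.10 CPM with CSF1Ri, a log2 fold change of 1.95 ± 0.47 (edgeR adjusted p = 0.063) that was 1.41 without combination replicate 2 (edgeR adjusted p = 0.131). For Igf2r these libraries did not overlap. Rragd, a GTPase that signals nutrient state on the lysosome, was scarce, with 0.206, 0.0393 and 0.291 CPM with the CD40 agonist against 1.15, 1.68 and 2.71 CPM in Control (log2 fold change -3.33 ± 1.10, edgeR adjusted p = 0.556). The remaining genes named by the same rule (Tmem106b, Lamtor2, Vps41, Atg12 and Atg5) had log2 fold changes of 0.36 to 0.78 with the combination, and 0 of these 5 passed the test by edgeR.

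Combination replicate 2 held the highest value of 14 of the 36 members, and CSF1Ri replicate 3 the highest of 0. CSF1Ri replicate 3 held the lowest value of 8. Within groups a member's coefficient of variation had a median of 21.3% among combination libraries, while Control, the CD40 agonist and CSF1Ri had 12.7%, 13.7% and 14.3%. In combination replicate 2 the 12 monocyte markers summed to 17246 CPM, where the other 11 libraries ranged from 6127 to 10627 CPM. The 9 dendritic cell markers summed to 128 CPM in that library, where the others ranged from 454 to 1289 CPM. Ly6c2, a marker of classical monocytes, was at 2528 CPM there against a median of 269.6 CPM, and Cd209a, a marker of monocyte-derived and conventional dendritic cells, at 0.0678 CPM against a median of 181 CPM. Ctsc and Lamp2 were highest and Lgmn and Cd63 lowest in this library. Melanocyte markers summed to 9.6 to 14.3 CPM in Control, 22.0 to 56.9 CPM with the CD40 agonist, 5.3 to 5.5 CPM with CSF1Ri and 7.3 to 108 CPM with the combination. The part of these cell types in the differences described was not tested.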

How the data were processed

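RNA from 12 libraries of tumor-associated macrophages (4 groups of 3) was measured. The kit kept no strand information, with an input of 50 ng RNA, 75-bp paired reads and 6 libraries per lane, per the labels' protocols. Per the submitters' processing notes, the tools were STAR, HTSeq and DESeq2 and the build mm10, with versions not given in the sources used here. Per the file headers, each deposited file gives 111462 transcripts with estimated counts, TPM, and both plain and effective lengths, a layout that HTSeq does not write. No normalization was applied to the deposited estimated counts. The deposited TPM values sum to 1000000 per library and were used to order genes by level. Not all alleles of the mice are reported here.

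Transcripts were matched to GENCODE M21 (98.87%), and estimated counts were summed by gene and rounded. Unmatched transcripts held 0.378% to 0.436% of the counts. Library totals were 26316328 to 39818657, and low counts limit the precision of Ctsf and Atp6v0d2 most. Coordinates are GRCm38, 1-based. All 12 libraries entered one edgeR 4.0.16 fit (R 4.3.3, TMM, filterByExpr, robust quasi-likelihood F-tests, 8 residual degrees of freedom, adjusted p below 0.05 over 16027 genes), which was tested on simulated data. The simulated spread was smaller than that of these data (common coefficient of variation 61%), so that test does not give the power here. SE comes from the fit and SD from 3 libraries. Reads shared by similar transcripts, such as those of paralogues, were divided by the estimate, and reads of overlapping genes cannot be told apart without strand.

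Values in every library are given for called members (none) and for the 2 members per gene group with the smallest p in the test of any difference. Some of the others were given after their values were seen. The members and lists were chosen with earlier results of these data known. Alternatives were DESeq2 1.42.0, its size factors, limma 3.58.1 voom, bias-adjusted edgeR, no filter, offsets for transcript length, fits of the compared groups alone, a replicate block and leaving out libraries. Protein sequences were not used.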

Additional observations from a re-analysis of the deposited data

How the results depend on the processing

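Members called by edgeR were 0 in all 7 comparisons, and 0 to 0 when each of the 12 libraries was left out in turn. DESeq2 size factors in edgeR, limma voom, no filter on low counts, transcript length offsets and a fit of only the compared groups also gave 0 in each comparison where they could be run. DESeq2 gave 1 for CSF1Ri, 5 for the combination against Control, 1 against the CD40 agonist, 5 against CSF1Ri and 6 for any difference. Bias-adjusted edgeR gave 1 (Ctsc) for the combination against CSF1Ri. Without CSF1Ri replicate 3 and combination replicate 2 together, counts were 1 (Ctse) for CSF1Ri, 1 (Ctsc) for the combination against Control, 3 (Cd63, Cd68 and Ctsa) against CSF1Ri and 2 (Cd63 and Ctsb) for any difference, and the cause was not tested. The median of the members for the combination against Control moved from 0.24 to 0.11 without combination replicate 2, and that for the combination against CSF1Ri from 0.27 to 0.09 without both. No result changed sign past a test. DESeq2 size factors turned 0 of 36 members' directions, but leaving out libraries turned up to 10, for CSF1Ri without Control replicate 3 and for the interaction without both libraries. For the CD40 agonist 24 members in place of 29 were higher without its replicate 2 or 3.

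Same-numbered replicates did not deviate together (correlations -0.06 to 0.06 over 18 pairs, 0 above 0.1), so no pairing by number was seen. Correlations over all genes cannot exclude a pairing that is weak or touches few genes. With the replicate block 0 members were called in all 7 comparisons, and over all genes 59 for the combination against Control where 124 were called without it, 121 in place of 311 against CSF1Ri and 49 in place of 193 for any difference.

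Genes called among all those tested moved more. For the combination against Control, where edgeR called 124, DESeq2 called 1114, bias-adjusted edgeR 282, the fit without both libraries that stand apart 232 and a fit of only the compared groups 5, and leaving out single libraries gave 0 (Control replicate 1 or 3) to 154 (CSF1Ri replicate 3). Against CSF1Ri, where edgeR called 311, these were 1673, 525, 632 and 0, and 22 (CSF1Ri replicate 2) to 429 (combination replicate 2). For any difference, where it called 193, the first 3 were 1978, 411 and 646, and single libraries gave 13 (CSF1Ri replicate 2) to 291 (combination replicate 2). For the CD40 agonist DESeq2 called 250, for CSF1Ri 455, for the combination against the CD40 agonist 347 and for the interaction 236, where edgeR called 0, 2, 0 and 0. Without both libraries these 4 counts were 38, 338, 8 and 66. A fit of only the compared groups called 43 for the CD40 agonist. With 3 libraries a group, members of wide spread, such as Ctsk and Atp6v0d2, had intervals that span more than a 2-fold change.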
